A study of Saccharomyces cerevisiae with 8 samples.

Results

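The GATA factors of budding yeast and the permeases they control form a small regulatory circuit for nitrogen. Of its genes, 9 were chosen by name: the activator genes GAT1 and GLN3, the repressor genes DAL80 and GZF3, the regulator gene URE2, the general amino acid permease gene GAP1 and the ammonium permease genes MEP1, MEP2 and MEP3. Of these 9, 7 have a transcript among the 6030 of the deposited annotation, matched by systematic name, and all 7 passed the filter on low counts. DAL80 and URE2 were not analysed here.

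GATA factors are zinc finger proteins that bind short DNA elements built around the letters GATA. Gln3 and Gat1 activate genes for the uptake and breakdown of poor nitrogen sources, whereas Dal80 and Gzf3 bind the same elements and repress. When a good nitrogen source is at hand, Ure2 and the TOR pathway keep the activators out of the nucleus, a state called nitrogen catabolite repression. Several GATA factor genes carry GATA elements of their own, so that the factors control each other as well as the permeases.

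Saccharomyces cerevisiae was compared in 4 groups with n = 2 libraries each: a parent strain and 3 strains with a mutant allele of a Mediator subunit, med7-1002, med21-1002 or med10-1002. Mediator is the complex that passes signals from activators to RNA polymerase II, and the study asks how these alleles of its middle module affect transcription. Every strain, the parent included, is labelled MATa with ade-, can1-100, cyh2r and his3-11,15. The labels also give all of them leu2-3,112, trp1-1 and ura3, an hsp82- allele and the reporter DHSE-lacZ. Cultures at 30 °C in YPD, a rich medium with glucose, received 5 mM 4-thiouracil for 6 min at an OD600 of 0.8, after which the labelled RNA was purified, so that the counts weight newly made RNA. None of the alleles is described as a deletion, and the labels do not say whether both libraries of a group came from separate cultures. The spread behind every p-value is thus that between these samples and may be technical. All 4 groups were fitted together, so the spread within each group enters the p-values and standard errors of every comparison.

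Libraries held 10962170 to 23629303 assigned counts, and these ends are med7-1002 replicates 1 and 2. In med7-1002 replicate 1, 49.5% of reads lay in no annotated feature, against 32.7% to 37.7% in the other libraries. Both med7-1002 libraries differed more from each other than those of any other group, with an SD of the log2 difference over transcripts of 0.92 against 0.23 to 0.37. Within med7-1002, transcripts with a span of 1500 to 2600 nt, the range that holds all 7 genes, were higher in replicate 2 by a median of 0.29 on the log2 scale, and those up to 500 nt lay at -0.74. Cell type markers went against the MATa label in 3 groups. The 4 measured alpha cell markers summed to 1217 to 1287 CPM (the count of a transcript scaled to its library total, with TMM factors) in parent, 946 to 1038 in med21-1002 and 848 to 926 in med10-1002, against 61.0 to 70.2 in med7-1002, where MF(ALPHA)1 and STE3 were at 0 in 1 library. The 4 a cell markers summed to 470 to 682 CPM in med7-1002, 25.5 to 26.6 in parent, 15.0 to 17.3 in med21-1002 and 61.9 to 63.4 in med10-1002. No sequencing batch is labelled. Both med7-1002 libraries, and no others, had low alpha and high a cell markers. The part of this difference in any result that involves med7-1002 cannot be told apart from that of the allele.

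The DNA before the transcript starts holds the elements that the factors read. A window of 300 bases before each annotated start was searched for the motif GATAAG on both strands, so that CTTATC in the printed strand is also a match, with overlapping matches counted separately. All 7 genes had at least 1 match, against 14.4% of the 4928 coding transcripts of the annotation. MEP3 had 5 matches, GAT1 and MEP2 had 4 each, GZF3 and GAP1 had 3 each, and GLN3 and MEP1 had 1 each. At least 3 matches were present in 12 of all windows, 0.244%, and 5 of these 12 belong to the genes described here. The other 7 belong to DAL3, DAL7, CAN1, GDH3, TOS7, FCY21 and GUD1. The shorter form GATAA is common and was found in 59.0% of all windows. A match is a description of letters and not a measured binding site.

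The windows with at least 3 matches are printed because they show how the motifs are arranged. They were read from the RefSeq R64 genome on the strand of the gene, 5′ to 3′, and the capitals mark GATAAG or its reverse complement CTTATC.
GAT1, chrVI:95628-95927, plus strand: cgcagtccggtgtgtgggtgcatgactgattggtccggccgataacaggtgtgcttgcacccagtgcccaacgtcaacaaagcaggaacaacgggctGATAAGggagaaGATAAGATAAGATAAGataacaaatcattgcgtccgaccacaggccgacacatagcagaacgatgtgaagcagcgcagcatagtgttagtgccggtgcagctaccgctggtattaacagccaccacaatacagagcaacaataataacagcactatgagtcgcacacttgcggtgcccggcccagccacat
GZF3, chrX:211667-211966, minus strand: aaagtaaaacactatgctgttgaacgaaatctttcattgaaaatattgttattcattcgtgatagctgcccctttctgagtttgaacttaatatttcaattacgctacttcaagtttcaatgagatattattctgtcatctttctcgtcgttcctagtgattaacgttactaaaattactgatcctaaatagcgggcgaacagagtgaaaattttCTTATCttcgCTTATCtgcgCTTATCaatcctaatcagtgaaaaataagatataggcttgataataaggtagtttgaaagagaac
GAP1, chrXI:514691-514990, plus strand: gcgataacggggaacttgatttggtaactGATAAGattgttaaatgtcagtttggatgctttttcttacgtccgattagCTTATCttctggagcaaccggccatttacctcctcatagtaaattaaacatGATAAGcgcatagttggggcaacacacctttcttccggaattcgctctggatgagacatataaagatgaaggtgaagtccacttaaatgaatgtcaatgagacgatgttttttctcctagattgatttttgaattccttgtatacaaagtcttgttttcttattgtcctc
MEP2, chrXIV:356818-357117, plus strand: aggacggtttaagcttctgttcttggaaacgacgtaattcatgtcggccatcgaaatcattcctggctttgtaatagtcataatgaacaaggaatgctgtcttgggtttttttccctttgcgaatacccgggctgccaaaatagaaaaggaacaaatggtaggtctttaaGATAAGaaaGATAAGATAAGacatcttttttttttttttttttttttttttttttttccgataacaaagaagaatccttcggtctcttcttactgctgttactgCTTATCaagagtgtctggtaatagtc
MEP3, chrXVI:812684-812983, minus strand: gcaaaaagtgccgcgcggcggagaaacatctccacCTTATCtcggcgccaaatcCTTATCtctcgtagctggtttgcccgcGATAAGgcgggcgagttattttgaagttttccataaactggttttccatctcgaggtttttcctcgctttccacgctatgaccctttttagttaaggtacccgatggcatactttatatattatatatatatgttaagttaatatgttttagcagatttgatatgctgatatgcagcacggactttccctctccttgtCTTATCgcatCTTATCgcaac

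In GAT1 the last 3 of the 4 matches overlap in 1 tandem run, centred 189, 184 and 179 bases before the start. GZF3 has 3 matches on the opposite strand, evenly spaced at 82, 72 and 62 bases before the start. MEP2 has a run of 3 matches on the strand of the gene at 128, 119 and 114 bases and 1 on the opposite strand at 23 bases. The matches of GAP1 are spread more widely, at 269, 218 and 168 bases. MEP3 has 3 matches between 262 and 217 bases and a pair at 18 and 8 bases. GLN3 and MEP1 have their single match far from the start, at 294 and 272 bases. Among the other nitrogen genes described below, all 6 measured allantoin and urea genes had at least 1 match, and so did 2 of 4 proline genes, 1 of 5 genes of GABA and arginine breakdown, 1 of 4 ammonium assimilation genes, 5 of 6 other permease and vacuolar hydrolase genes and 4 of 14 signalling genes.

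**Figure D1:**
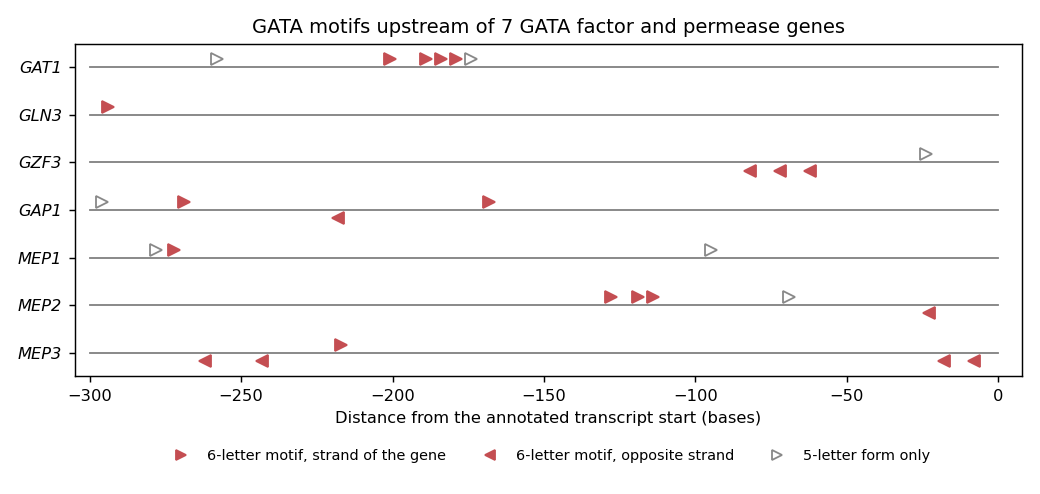
Positions of GATA motifs in the 300 bases before the annotated transcript start of each gene, with the distance from the start in bases on the horizontal axis. Filled triangles are the 6-letter motif, pointing right on the strand of the gene and left on the opposite strand, and open triangles are the 5-letter form alone; 5 of the 7 genes have at least 3 filled triangles, while GLN3 and MEP1 have 1.

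The activator gene GAT1 was made less in all 3 mutants than in the parent. Its levels were 349.6 and 407 CPM in the parent libraries, with med7-1002 at 77.3 and 88.0, med21-1002 at 133 and 123 and med10-1002 at 149 and 154. The lowest parent library stood above every mutant library, and the 3 mutants did not overlap with each other. The share of all transcripts without such an overlap is not given, here or below. For med21-1002 against med10-1002 the log2 difference of -0.25 did not pass in the main fit. It passed with only the groups compared (-0.27, edgeR adjusted p = 0.0414) and without the med7-1002 libraries (-0.27, 0.0307). GAT1 (YFL021W, chromosome VI, 95928 to 97505, plus strand) fell by 2.19 on the log2 scale in med7-1002 (SE 0.13, edgeR adjusted p = 1.28e-05). It fell by 1.56 in med21-1002 (SE 0.13, adjusted p = 0.000374) and by 1.32 in med10-1002 (SE 0.13, adjusted p = 0.00145). The med7-1002 level was lower than in med21-1002 by a log2 difference of -0.63 (SE 0.13, adjusted p = 0.00537) and lower than in med10-1002 by -0.88 (SE 0.13, adjusted p = 0.000565). These 5 calls held in every alternative setting. The transcript YFL021C-A covers 1325 nt of GAT1 on the opposite strand, with 91 to 324 counts per library against 880 to 7374 for GAT1. The strand setting of the counting is not given in the sources used here.

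GLN3 encodes the other activator, which is held in the cytoplasm by Ure2 in good nitrogen. GLN3 (YER040W, chromosome V, 229713 to 232249, plus strand) stood at 276 and 299 CPM in the parent libraries, with med7-1002 at 119 and 165, med21-1002 at 256 and 241 and med10-1002 at 249 and 246. The med7-1002 libraries were the low ones, while the other mutants lay just under the parent without overlap. GLN3 fell by 1.02 on the log2 scale in med7-1002 (SE 0.16, edgeR adjusted p = 0.000855). Its log2 differences of -0.21 in med21-1002 (SE 0.16, adjusted p = 0.501) and -0.22 in med10-1002 (SE 0.16, adjusted p = 0.430) did not pass the threshold. With only the groups compared, the med10-1002 difference passed (-0.22, adjusted p = 0.00855). The level in med7-1002 was lower than in med21-1002 by a log2 difference of -0.81 (SE 0.16, adjusted p = 0.00423) and lower than in med10-1002 by -0.80 (SE 0.16, adjusted p = 0.00271), and these differences were -0.52 and -0.42 after a correction for transcript length, with both calls kept.

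GZF3, the gene of a GATA repressor, went in opposite directions in med7-1002 and med10-1002. GZF3 (YJL110C, chromosome X, 209793 to 211666, minus strand) stood at 123 and 135 CPM in the parent libraries, with med7-1002 at 69.9 and 81.9, med21-1002 at 111.98 and 102 and med10-1002 at 379 and 379. The med10-1002 libraries were above all others and the med7-1002 libraries below all others. In med10-1002 GZF3 rose by 1.56 on the log2 scale, 2.94-fold (SE 0.13, edgeR adjusted p = 0.000860). In med7-1002 it fell by 0.76 (SE 0.13, adjusted p = 0.00127). In med21-1002 the log2 difference of -0.27 (SE 0.13, adjusted p = 0.266) did not pass. The level in med10-1002 was higher than in med7-1002 (log2 difference of med7-1002 against med10-1002 -2.32, SE 0.13, adjusted p = 9.28e-06) and than in med21-1002 (-1.83, SE 0.13, adjusted p = 0.000122). The rise in med10-1002 kept its call in every alternative setting.

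GAP1 encodes the general amino acid permease, a high-capacity transporter that cells make and keep at the surface when nitrogen is poor. GAP1 (YKR039W, chromosome XI, 514991 to 516976, plus strand) stood at 142 and 122 CPM in the parent libraries, with med7-1002 at 305 and 622, med21-1002 at 414 and 447 and med10-1002 at 159 and 156. The med7-1002 and med21-1002 libraries were all above those of parent and med10-1002, and the med7-1002 pair lay 1.03 apart on the log2 scale. GAP1 rose by 1.81 in med7-1002, 3.52-fold (SE 0.28, edgeR adjusted p = 0.000808), and by 1.71 in med21-1002, 3.26-fold (SE 0.28, adjusted p = 0.00765). In med10-1002 the log2 difference was 0.25 (SE 0.27, adjusted p = 0.618), which passed with only the groups compared (0.25, adjusted p = 0.00662) and without the med7-1002 libraries (0.28, 0.0348). Both rises were also differences from med10-1002, at 1.56 for med7-1002 (SE 0.28, adjusted p = 0.00152) and 1.45 for med21-1002 (SE 0.28, adjusted p = 0.00868). Between med7-1002 and med21-1002 the log2 difference was 0.11 (SE 0.27, adjusted p = 0.773), and its direction rested on the med7-1002 library used: it was called higher without med7-1002 replicate 1 (0.53, adjusted p = 0.00143) and called lower without med7-1002 replicate 2 (-0.52, 0.00214). The value in med7-1002 was 1.19 against parent and 0.94 against med10-1002 without med7-1002 replicate 2, with the calls kept. The rise in med21-1002 lost its call without parent replicate 1 (log2 1.82, adjusted p = 0.0680), parent replicate 2 (1.60, 0.0735), med21-1002 replicate 1 (1.76, 0.0584) or med21-1002 replicate 2 (1.65, 0.0913). The call of med21-1002 against med10-1002 was lost without med21-1002 replicate 2 (1.39, adjusted p = 0.0884), med10-1002 replicate 1 (1.48, 0.0555) or med10-1002 replicate 2 (1.43, 0.0768).

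**Figure D2:**
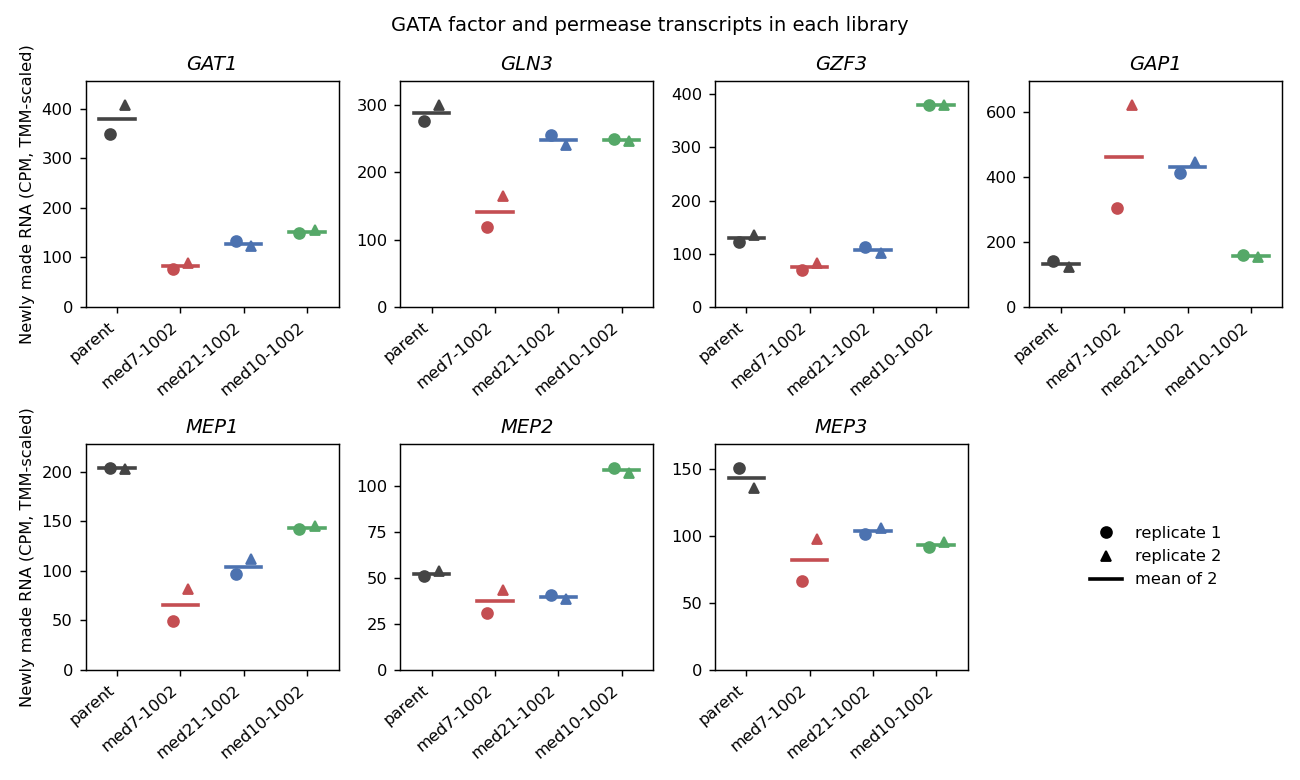
Level of each transcript in every library, in CPM scaled by TMM on a linear axis from 0. Circles are replicate 1, triangles are replicate 2 and horizontal bars are the mean of 2 libraries; GAT1 is highest in parent, GZF3 and MEP2 are highest in med10-1002, and GAP1 is highest in med7-1002 and med21-1002.

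The ammonium permease genes all fell in med7-1002 and all lay below the parent in med21-1002, where only MEP1 passed the threshold. In med10-1002 MEP2 rose, while MEP1 and MEP3 lay below the parent without passing. Mep2 is the high-affinity permease and also acts as a sensor for filamentous growth, whereas Mep1 and Mep3 are transporters without that role. By coding sequence, MEP1 and MEP3 are 70.6% identical, while MEP2 is 54.0% identical to MEP1 and 54.4% to MEP3. None of the 7 transcripts holds a 36-base or 50-base stretch found elsewhere in the genome.

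MEP1 (YGR121C, chromosome VII, 731293 to 732966, minus strand) stood at 204 and 203 CPM in the parent libraries, with med7-1002 at 49.2 and 81.9, med21-1002 at 96.5 and 112.3 and med10-1002 at 142 and 146. In CPM the groups did not overlap and followed the order parent, med10-1002, med21-1002, med7-1002, but not every step passed the threshold. For med21-1002 against med10-1002 the log2 difference was -0.46, which did not pass in the main fit. Without the med7-1002 libraries it passed (-0.49, edgeR adjusted p = 0.00102). MEP1 fell by 1.63 on the log2 scale in med7-1002 (SE 0.21, edgeR adjusted p = 0.000321) and by 0.96 in med21-1002 (SE 0.21, adjusted p = 0.0274). The log2 difference of -0.50 in med10-1002 (SE 0.21, adjusted p = 0.172) did not pass. It passed with only the groups compared (-0.50, adjusted p = 2.79e-06) and without the med7-1002 libraries (-0.48, 0.00166). It was also -0.50 without med7-1002 replicate 1 or replicate 2. MEP1 was lower in med7-1002 than in med10-1002 by a log2 difference of -1.13 (SE 0.21, adjusted p = 0.00192) and than in med21-1002 by -0.66 (SE 0.21, adjusted p = 0.0328). The call in med21-1002 disappeared without parent replicate 1 (-0.96, adjusted p = 0.165), parent replicate 2 (-0.97, 0.112), med21-1002 replicate 1 (-0.86, 0.184), med21-1002 replicate 2 (-1.08, 0.159) or med10-1002 replicate 2 (-0.97, 0.0628). The call of med7-1002 against med21-1002 did not hold without parent replicate 1 (-0.67, adjusted p = 0.0588), med21-1002 replicate 1 (-0.77, 0.0846), med21-1002 replicate 2 (-0.57, 0.163) or med10-1002 replicate 2 (-0.68, 0.0543), nor with only the groups compared (-0.68, 0.0733), and its value was -0.35 without med7-1002 replicate 1 and -1.11 without med7-1002 replicate 2. The noncoding transcript SUT128 covers 1630 nt of MEP1 on the opposite strand and had 178 to 1144 counts per library, with its highest counts, 1144 and 1047, in med10-1002.

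MEP2 (YNL142W, chromosome XIV, 357118 to 359041, plus strand) stood at 51.0 and 53.9 CPM in the parent libraries, with med7-1002 at 30.9 and 43.5, med21-1002 at 40.8 and 38.3 and med10-1002 at 110 and 107. Only the med10-1002 libraries were above the parent, and med7-1002 and med21-1002 overlapped below it. MEP2 rose by 1.05 on the log2 scale in med10-1002, 2.07-fold (SE 0.16, edgeR adjusted p = 0.00774). It was lower in med7-1002 than in med10-1002 by a log2 difference of -1.54 (SE 0.17, adjusted p = 9.64e-05) and lower in med21-1002 than in med10-1002 by -1.46 (SE 0.16, adjusted p = 0.000791). Against parent it fell by 0.49 in med7-1002 (SE 0.16, adjusted p = 0.0354), and its log2 difference in med21-1002 was -0.41 (SE 0.16, adjusted p = 0.189). The med21-1002 difference passed with only the groups compared (-0.41, adjusted p = 0.0367) and without the med7-1002 libraries (-0.41, 0.00835). It was -0.40 without med7-1002 replicate 1 or replicate 2. The rise in med10-1002 lost its call without parent replicate 1 (1.01, adjusted p = 0.123), parent replicate 2 (1.08, 0.0830), med10-1002 replicate 1 (1.04, 0.0755) or med10-1002 replicate 2 (1.07, 0.0801). Leaving out any 1 library except med7-1002 replicate 2 or med10-1002 replicate 1 removed the med7-1002 call, at adjusted p of 0.0528 to 0.107, and its value was -0.27 without med7-1002 replicate 1 and -0.78 without med7-1002 replicate 2. That call was also lost after a correction for transcript length (-0.27, adjusted p = 0.119) and in a fit of only the groups compared (-0.51, adjusted p = 0.114). CUT808, a noncoding transcript, covers 88 nt of MEP2 on the opposite strand.

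MEP3 (YPR138C, chromosome XVI, 810843 to 812683, minus strand) stood at 151 and 136 CPM in the parent libraries, with med7-1002 at 66.6 and 97.9, med21-1002 at 102 and 106 and med10-1002 at 91.3 and 95.1. Every mutant library was below both parent libraries. MEP3 fell by 0.80 on the log2 scale in med7-1002 (SE 0.17, edgeR adjusted p = 0.00498). Its log2 differences of -0.46 in med21-1002 (SE 0.17, adjusted p = 0.155) and -0.62 in med10-1002 (SE 0.17, adjusted p = 0.0646) did not pass. The med10-1002 difference passed with DESeq2 (-0.60, adjusted p = 0.0172), with library size alone as the scaling (-0.63, 0.0230), after the length correction (-0.73, 0.0151) and with only the groups compared (-0.62, 8.34e-07). With only the groups compared, the med21-1002 difference passed as well (-0.47, edgeR adjusted p = 0.00876). Without med7-1002 replicate 1 or 2, both passed, at -0.46 and -0.46 in med21-1002 (adjusted p = 0.00203 and 0.00292) and -0.62 and -0.62 in med10-1002 (adjusted p = 0.000292 and 0.000380). MEP3 had the lowest level per kb of the 7 genes in med10-1002, but ranked 4 in parent and med7-1002 and 6 in med21-1002. Its window has the most GATAAG matches of all 4928, and a link of matches to level was not tested.

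**Figure D3:**
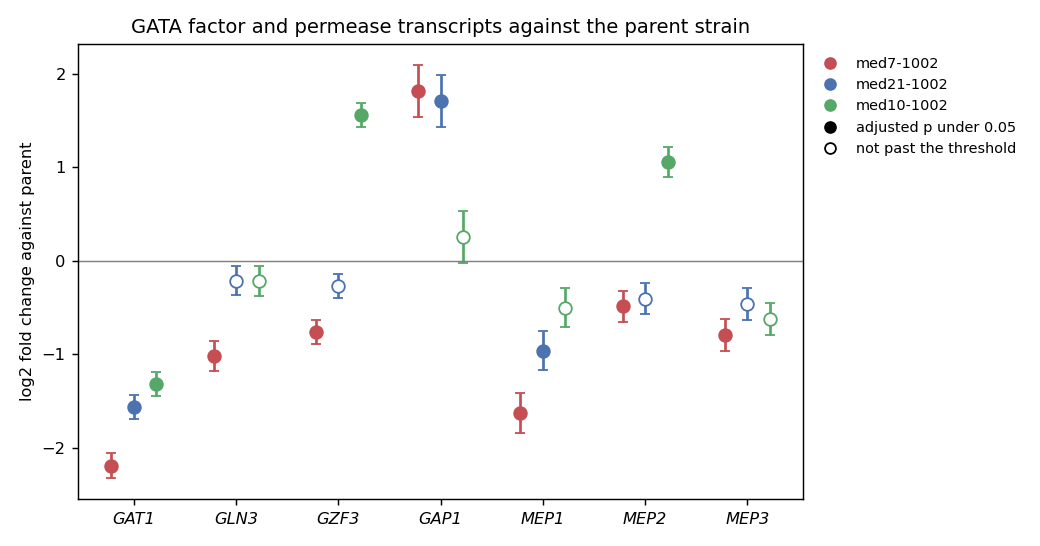
Log2 fold change of each transcript in each mutant against the parent, with bars of 1 standard error from the edgeR fit on all 8 libraries. Filled points passed the adjusted p threshold of 0.05; GAT1 is filled and below 0 in all 3 mutants, GAP1 is filled above 0 in med7-1002 and med21-1002, and GZF3 and MEP2 are filled above 0 in med10-1002.

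In med7-1002 all 7 of these transcripts passed the threshold, 6 lower and 1 higher, in a comparison where 48.6% of the 5746 transcripts passed, 22.6% lower and 25.9% higher. The median log2 difference of the 7 was -0.80, against 0.02 over all transcripts. In med21-1002, 3 of 7 passed, GAT1 and MEP1 lower and GAP1 higher, against 7.80% of all transcripts, 3.92% lower and 3.88% higher, with a median of -0.41 against 0.00. In med10-1002, 3 of 7 passed, GZF3 and MEP2 higher and GAT1 lower, against 7.55% of all transcripts, 4.93% higher and 2.63% lower, with a median of -0.22 against -0.01. The 3 comparisons share the parent libraries. Without the med7-1002 libraries, which vary most, 6 of the 7 passed in med21-1002 and 6 in med10-1002, in a fit where 29.7% and 36.9% of all transcripts passed. In that fit GZF3, MEP2 and MEP3 joined the lower genes of med21-1002, while GAP1 joined the higher and MEP1 and MEP3 the lower genes of med10-1002. Between mutants, 4 of 7 passed for med7-1002 against med21-1002 (40.7% of all transcripts), 6 for med7-1002 against med10-1002 (54.9%) and 3 for med21-1002 against med10-1002 (20.0%). One of the 4, GZF3, had a log2 difference of -0.49 for med7-1002 against med21-1002 (SE 0.13, adjusted p = 0.0148), and its call was lost without med21-1002 replicate 1 (-0.42, adjusted p = 0.0963) or with only the groups compared (-0.51, adjusted p = 0.0940), while the length correction gave -0.31 with the call kept. The call of GZF3 in med21-1002 against parent was gained without med7-1002 replicate 1 (-0.27, adjusted p = 0.0393) or replicate 2 (-0.26, 0.0474).

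By level per length, GAT1 led in parent, GZF3 in med10-1002 and GAP1 in med7-1002 and med21-1002. The orders in med7-1002 and med21-1002 differed only among MEP1, GZF3 and MEP3, whose neighbouring values overlapped. In parent GAT1 led with 240 ± 25.6 CPM per kb of transcript span (SD, n = 2), followed by MEP1 at 122 ± 0.433, GLN3 at 113 ± 6.44, MEP3 at 77.8 ± 5.76, GZF3 at 68.7 ± 4.43, GAP1 at 66.4 ± 6.92 and MEP2 at 27.2 ± 1.07. Only the neighbours GZF3 and GAP1 overlapped there. In med7-1002 GAP1 led with 233 ± 113 CPM per kb, and GLN3, GAT1, MEP3 and GZF3 each overlapped the next in order, from 55.8 down to MEP1 at 39.2 ± 13.8, which lay above MEP2 at 19.3 ± 4.63 without overlap. In med21-1002 GAP1 led with 217 ± 11.98 CPM per kb, above GLN3 at 97.9 ± 4.17 and GAT1 at 81.0 ± 4.48. MEP1, GZF3 and MEP3 followed there with overlapping values between 62.4 and 56.4, and MEP2 was last at 20.6 ± 0.941. In med10-1002 the repressor gene GZF3 led with 202 ± 0.0546 CPM per kb. GLN3 at 97.5 ± 0.829 and GAT1 at 96.2 ± 2.27 overlapped in med10-1002, and MEP1, GAP1, MEP2 and MEP3 followed without overlap, from 86.0 down to 50.6 CPM per kb. MEP2 was thus last in 3 groups and next to last in med10-1002.

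Across the 8 libraries, the log2 CPM of GZF3 and MEP2 moved most alike among these genes, with a Pearson r of 0.98, while GAP1 had a negative r with each of the others, from -0.77 to -0.41. These are descriptions over n = 8 libraries that share 4 strains and the depth of each library. Among 4577 other coding transcripts, the one most like each gene was found by the same measure, so each r is the largest of 4577. TRR1, the cytoplasmic thioredoxin reductase gene, was most like GAT1 (r = 0.98), and ERO1, an oxidase of protein folding in the endoplasmic reticulum, was most like GLN3 (r = 0.99). YCR045W-A was most like GZF3 (r = 0.995), with group means of 37.2 CPM in parent, against 26.0 for med7-1002, 30.1 for med21-1002 and 82.3 for med10-1002. ALD6, the cytosolic acetaldehyde dehydrogenase gene, was most like GAP1 (r = 0.99), at 1399, 2797, 2592 and 1622 CPM in the same order. ARG80, a regulator of arginine genes, was most like MEP1 (r = 0.997), at 29.5, 4.88, 10.2 and 16.6 CPM. ALR2, a magnesium transporter gene, was most like MEP2 (r = 0.99), at 147, 107, 127 and 349.6 CPM. MUK1 was most like MEP3 (r = 0.97).

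Most of the genes for the use of allantoin and urea, further GATA-controlled genes, fell in med7-1002 and rose in med10-1002. Of 6 measured genes, 5 fell in med7-1002, where 22.6% of all transcripts did, with a median log2 difference of -0.83 against 0.02 over all transcripts. In med10-1002, 4 rose, where 4.93% of all transcripts did, with a median of 0.92 against -0.01. DCG1 fell most in med7-1002, by 1.74 (SE 0.37, edgeR adjusted p = 0.00426), but stood at 14.8 and 14.6 CPM in med10-1002 against 12.5 and 14.4 in parent, a log2 difference of 0.12 (SE 0.34, adjusted p = 0.863). DAL3 passed in no mutant, with log2 differences of -0.11, -0.02 and 0.27 at group means of 1.98 to 2.62 CPM. In med21-1002 none of the 6 passed by edgeR, with a median of -0.20, while 3 had an unadjusted p under 0.05 and DESeq2 called 1 lower and 1 higher. With 1 library left out, edgeR called 0 to 1 higher and 0 to 2 lower there. DUR3, the urea permease gene, stood at 111.98 and 106 CPM in the parent libraries, with med7-1002 at 53.6 and 64.5, med21-1002 at 157 and 136 and med10-1002 at 247 and 232. It was low in med7-1002 and high in med10-1002 with no overlap of groups, at log2 differences of -0.88 (SE 0.14, edgeR adjusted p = 0.000775) and 1.13 (SE 0.13, adjusted p = 0.00267), and the first was -0.58 after the length correction with the call kept. The allantoicase gene DAL2 stood at 13.0 and 11.6 CPM in parent and at 35.7 and 36.7 in med10-1002, a rise of 1.56 (SE 0.21, adjusted p = 0.00468), and fell by 0.90 in med7-1002 (SE 0.22, adjusted p = 0.00915). The allantoate permease gene DAL5 rose by 1.07 in med10-1002 (SE 0.16, adjusted p = 0.00667) and fell by 0.73 in med7-1002 (SE 0.16, adjusted p = 0.00524). The malate synthase gene DAL7 rose by 0.78 in med10-1002 (SE 0.16, adjusted p = 0.0244) and fell by 0.77 in med7-1002 (SE 0.16, adjusted p = 0.00383). With 1 parent or med10-1002 library left out, the count of 4 in med10-1002 fell, and fewer of all transcripts were called. Without parent replicate 2 or either med10-1002 replicate, only DUR3 kept its call. Without parent replicate 1 none of the 4 did, with DUR3 at a log2 difference of 1.17. Over these fits DAL2 ran from 1.47 to 1.64, DAL5 from 1.03 to 1.11 and DAL7 from 0.71 to 0.84. DAL7 also lost its call without either med21-1002 replicate (adjusted p = 0.0521 and 0.0528).

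The other nitrogen groups did not move together. Of all transcripts, 25.9% rose and 22.6% fell in med7-1002. The shares were 3.88% and 3.92% in med21-1002, and 4.93% and 2.63% in med10-1002. Of 6 other amino acid permease and vacuolar hydrolase genes, 2 rose and 2 fell in med7-1002, 1 fell in med21-1002, and 1 rose and 1 fell in med10-1002. With 1 library left out, these counts ran from 2 to 3 higher and 1 to 4 lower in med7-1002, 0 to 3 higher and 0 to 1 lower in med21-1002, and 0 to 1 higher and 0 to 2 lower in med10-1002. PRB1 was called lower in all 3 mutants, at log2 differences of -0.53 in med7-1002, -0.59 in med21-1002 and -0.54 in med10-1002. Its SE was 0.13 in each (edgeR adjusted p = 0.00834, 0.0282 and 0.0407). With only the groups compared the med7-1002 call was lost (-0.55, 0.0717), and the replicate block removed the other calls. CAN1, the arginine permease gene, which has 3 GATAAG matches and which every strain carries as can1-100, stood at 330.2 and 327 CPM in the parent libraries, with med7-1002 at 116 and 137, med21-1002 at 307 and 285 and med10-1002 at 752 and 742. It fell by 1.37 on the log2 scale in med7-1002 (SE 0.13, edgeR adjusted p = 6.08e-05) and rose by 1.19 in med10-1002 (SE 0.13, adjusted p = 0.00195), a call that leaving out parent replicate 1 removed (1.19, adjusted p = 0.0530). Of 4 proline genes, 1 rose and 2 fell in med7-1002, 1 rose in med21-1002, and 1 rose and 1 fell in med10-1002. The 2 that fell in med7-1002 were PUT1 and PUT3, an activator of the proline genes, whose call (-0.42, SE 0.13, adjusted p = 0.0262) was lost without parent replicate 1 (-0.36, adjusted p = 0.185) or med10-1002 replicate 2 (-0.44, 0.0586) and after the length correction (-0.08, 0.598). The gene that rose was in each case PUT4, the proline permease gene, which has no GATAAG match and stood at 14.7 and 14.5 CPM in parent and 26.9 and 24.3 in med10-1002, against 708 and 1008 in med7-1002 and 834 and 870 in med21-1002. PUT1, the proline oxidase gene, fell by 1.49 in med7-1002 (SE 0.26, adjusted p = 0.00138) and by 1.04 in med10-1002 (SE 0.25, adjusted p = 0.0415). The med10-1002 calls of PUT4 and PUT1 were lost without any 1 of the parent or med10-1002 libraries, at adjusted p of 0.177 to 0.296, and that of PUT4 also without either med21-1002 library (0.0763 and 0.0783).

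Of 4 ammonium assimilation genes, 2 rose and 1 fell in med7-1002, 2 rose in med21-1002 and 1 rose in med10-1002. The 2 in med21-1002 were GDH1 (0.97, SE 0.16, edgeR adjusted p = 0.00869) and GLN1 (0.77, SE 0.18, adjusted p = 0.0338). GDH1 lost that call without any 1 of the parent or med21-1002 libraries (adjusted p = 0.0715 to 0.0881), and GLN1 without any 1 of these or med10-1002 replicate 2 (0.0912 to 0.256). The fall in med7-1002 was that of GDH3 (-0.89, SE 0.32, adjusted p = 0.0454), which lost its call without any 1 library of the other 3 groups (0.0515 to 0.185). The biosynthetic genes GDH1, a glutamate dehydrogenase, and GLN1, the glutamine synthetase, were the higher ones in med7-1002 (log2 2.45 and 1.72, SE 0.17 and 0.18, edgeR adjusted p = 1.63e-05 and 9.55e-05). The catabolic glutamate dehydrogenase gene GDH2 was the one that rose in med10-1002, by 0.98 (SE 0.19, adjusted p = 0.0195), a call lost without either parent library (adjusted p = 0.151 and 0.149) or either med10-1002 library (0.111 and 0.131). Of 5 genes of GABA and arginine breakdown, 1 passed in med7-1002, UGA1, the GABA transaminase gene, which rose by 1.48 (SE 0.32, adjusted p = 0.00487), or by 0.74 without med7-1002 replicate 2 with the call kept. None of those 5 passed in med21-1002 or med10-1002 by edgeR or DESeq2, and 0 had an unadjusted edgeR p under 0.05 in either. With 1 library left out, edgeR called up to 3 of the 5 higher in med10-1002, and up to 1 higher and 1 lower in med21-1002. In med7-1002, where 48.6% of all transcripts passed in either direction, 2 of 14 genes of nitrogen signalling and permease control rose and 2 fell. Of these 14, 1 rose and 1 fell in each of the other mutants. With 1 library left out, the number higher ran from 2 to 7 in med7-1002, 0 to 7 in med21-1002 and 0 to 4 in med10-1002, and the number lower from 1 to 4, 1 to 2 and 0 to 2. LST8, a subunit of the TOR complexes, was the one gene of the 14 that fell in all 3. It stood at 618 and 646 CPM in the parent libraries, with med7-1002 at 128 and 150.4, med21-1002 at 306 and 264 and med10-1002 at 339 and 339. Its log2 differences were -2.18 in med7-1002 (SE 0.14, adjusted p = 1.36e-05), -1.15 in med21-1002 (SE 0.14, adjusted p = 0.00150) and -0.90 in med10-1002 (SE 0.14, adjusted p = 0.00747). The med10-1002 call of LST8 did not hold without parent replicate 1 (-0.93, adjusted p = 0.0897), parent replicate 2 (-0.88, 0.0646), med10-1002 replicate 1 (-0.90, 0.0755) or med10-1002 replicate 2 (-0.89, 0.121).

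**Figure D4:**
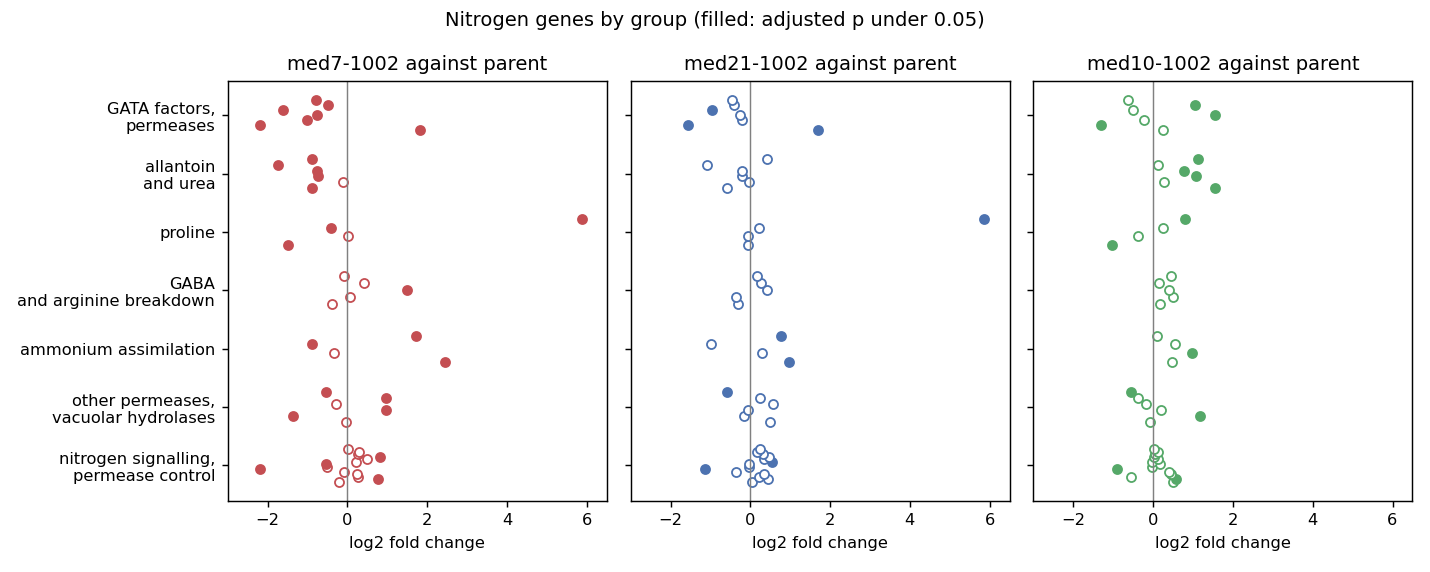
Log2 fold change against the parent of every tested gene of the nitrogen groups, 1 panel per mutant and 1 point per gene. Filled points passed the edgeR adjusted p threshold of 0.05; 5 of the 6 allantoin and urea genes are filled and below 0 in med7-1002, and 4 of the 6 are filled and above 0 in med10-1002.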

How the data were processed

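RNA labelled with 4-thiouracil was sequenced in 8 libraries of 4 groups. HTSeq, SAMtools and STAR 2.3.0 and the builds R64 and sacCer3 are named in the submitters' processing notes. The deposited values are raw read counts per transcript. How strands and reads with several matches were handled is not given in the sources used here. Reads without a transcript, 32.7% to 49.5% of a library for those in no annotated feature, stayed out of totals and tests. Spike-in counts were not analysed here, so every value is relative to the other transcripts of its library.

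The main test was edgeR's quasi-likelihood test (version 4.0.16, R 4.3.3) on all 8 libraries, with TMM scaling, filterByExpr at a minimum count of 10 (284 transcripts removed, 5746 tested) and Benjamini-Hochberg adjustment over all of them, called at an adjusted p under 0.05. SEs were derived from the F statistic of each fold change. Alternatives were DESeq2 1.42.0, other scalings, no filter, fewer groups, a replicate block, a length correction and leaving out each library. On simulated counts with 200 changed transcripts, 65.7% to 71% of 2-fold changes and 87.9% to 94% of 4-fold changes were found. False calls numbered 8 to 15 per comparison. Smaller changes were not simulated, and every group had the same dispersion there, unlike the more variable med7-1002 libraries. Likeness is Pearson's r of log2 CPM (prior count 2).

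The genes and the nitrogen lists were chosen with earlier results of these data known. All 7 genes are named, as are up to 4 genes of a list with the smallest adjusted p in a comparison, of which a selection is printed.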

Additional observations from a re-analysis of the deposited data

How the results depend on the processing

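The 7 GATA factor and permease genes in 6 comparisons gave 42 results and 651 values under 16 other settings. Of these values 572 kept their direction and their side of the threshold, 31 lost a call, 37 gained one in the same direction and 11 changed sign. All 11 belong to differences between mutants that were not called. GAP1 in med7-1002 against med21-1002, at 0.11, was called in both directions: it ran from -0.52 without med7-1002 replicate 2 to 0.53 without replicate 1, and it was -0.029 with library size alone. MEP2 in the same comparison, at -0.08, was 0.11 after the length correction and ran from -0.38 without med7-1002 replicate 2 to 0.14 without replicate 1. MEP3 in med7-1002 against med10-1002, at -0.18, was 0.13 after the length correction and ran from -0.50 to 0.071 over the same left-out libraries. GLN3 in med21-1002 against med10-1002, at 0.01, was -0.0099 with library size alone, -0.016 with only the groups compared, -0.017 without the med7-1002 libraries, and ran from -0.038 without med21-1002 replicate 1 to 0.039 without med21-1002 replicate 2. The number of these genes called in med7-1002 against parent stayed at 6 or 7, and in med7-1002 against med10-1002 likewise. For med21-1002 against parent the count of 3 was 5 with only the groups compared and 6 without the med7-1002 libraries, and 1 to 6 with 1 library left out. The transcripts called there were 7.80% of all, but 21.5% with only the groups compared and 29.7% without the med7-1002 libraries. For med10-1002 against parent the count of 3 was 7 with only the groups compared, 6 without the med7-1002 libraries and 2 to 5 with 1 library left out, where 7.55% of all transcripts became 52.7% and 36.9% in the first 2 of these. For med7-1002 against med21-1002 the count of 4 was 2 with only the groups compared, where 40.7% of all transcripts became 23.5%. For med21-1002 against med10-1002 the count of 3 was 5 with only the groups compared and 5 without the med7-1002 libraries. There 20.0% of all transcripts became 42.0% and 47.4%. The counts also moved when 1 library was left out, and so did the number of all transcripts called in each comparison. With 1 library left out, the lone library is assumed to vary like the other groups, and the cause of these moves was not tested.

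With the replicate block, the counts of these genes against parent were 7, 3 and 3 in med7-1002, med21-1002 and med10-1002, the same as without it. Among the other nitrogen genes it removed the med10-1002 calls of DAL7 (adjusted p = 0.0578), PUT4 (0.0703), GTR1 (0.0771), PUT1 (0.0830) and PRB1 (0.0933), the med21-1002 calls of GLN1 (0.0604), PRB1 (0.0724) and NPR3 (0.0956), and that of GDH3 in med7-1002 (0.0759). The block lowered the transcripts called in med21-1002 from 448 to 269 and in med10-1002 from 434 to 202. Same-numbered libraries share only a number: their deviations correlated between -0.19 and 0.09 over transcripts. All transcripts called in med7-1002 against parent numbered 2790, with 1847 to 3936 when 1 library was left out, and the share called higher was 53.4%, or 42.8% with library size alone as the scaling. In med10-1002 that share was 65.2%, or 76.7% with the replicate block and 43.1% with the length correction. Of 557 values under another setting of other nitrogen genes that were called, 461 kept their call and 96 lost it; genes not called are not in that number, and their gains show in the counts by group.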
